A study of Mus musculus with 48 samples.

Results

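The interferon regulatory factors (IRFs) were examined in B16-D5 melanomas grown in mice, as 8 genes taken by their symbols: Irf1, Irf2, Irf3, Irf4, Irf5, Irf7, Irf8 and Irf9. These members and the gene lists used below were chosen with earlier results of these data known. They were 8 of the 55450 genes in the count table, and all 8 passed the filter on low counts in both experiments. IRFs are transcription factors with a shared DNA-binding domain that act downstream of pathogen sensors and of interferon receptors. Sensors of foreign nucleic acid lead to phosphorylation of IRF3 and IRF7, which then induce interferon genes. Type I interferons in turn act through the ISGF3 complex, of which IRF9 is a part, and interferon gamma induces Irf1.

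The 48 tumors fell into 16 groups of 3, each from a separate C57BL/6J mouse. All mice, WT or iNOS KO, arrived at 4 weeks of age, were housed for 2 weeks, and were injected under the skin with cells of B16-D5, a subclone of a mouse melanoma line, 8 days before treatment. The time course held 30 tumors of WT mice in 10 groups, namely untreated at 0 hours, and at each of 6 hours, day 1 and day 3 an untreated, a control IgG and an anti-PD-1 group. The day 7 experiment held 18 tumors in 6 groups, which were untreated, IgG or anti-PD-1 in WT and in iNOS KO hosts. Antibodies were given as 250 µg in 200 µL on days 0 and 3, and anti-PD-1 blocks an inhibitory receptor of T cells. The same tumor line was injected into every host, so a KO label refers to the host cells of a tumor and not to its melanoma cells. Groups were taken from the sample titles, since the treatment field matched the title in 14 of 48 samples, the time field matched it in 11 of the 30 samples of the time course, and the genotype field gave WT also for the 9 samples titled KO.

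Libraries held 25574203 to 47687872 counts on genes in the time course and 11625862 to 40959309 at day 7. Nos2, the gene deleted in the KO hosts, ranged from 1.15 to 5.92 CPM, a gene's count scaled to the total of its library, in the 9 tumors labelled KO and from 1.40 to 7.28 in the 9 WT tumors of that experiment, so it did not separate the labels. Summed CPM of 6 melanocyte markers, among them Mitf and Pmel, was 9013 to 19552 across the time course and 9255 to 18060 at day 7, with none of the 6 at 0 in any group. Among the day 7 libraries, 3 stood apart in the level of 1502 sensory receptor genes, which these tissues are not known to use. It was 3710 CPM in the anti-PD-1 WT tumor 3, 1304 in the anti-PD-1 WT tumor 4 and 916 in the untreated KO tumor 1, against 319 CPM at most in the other 45 libraries. For these receptor genes CPM was taken from the unscaled library totals. Leaving these libraries out leaves 1 anti-PD-1 WT tumor and 2 untreated KO tumors, so that the spread in such a fit comes mostly from the other groups. In whole tumors, fewer cells of a type and less RNA per cell cannot be told apart.

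IRF3 and IRF9 are the members that most cells carry at all times, IRF3 as the latent factor that is activated by phosphorylation and IRF9 as the DNA-binding part of ISGF3. On the GRCm38 assembly, Irf3 is on chromosome 7 (44997648 to 45002848) and Irf9 is on chromosome 14 (55603571 to 55610030). IRF1 is an activator induced by interferon gamma, and IRF2 binds the same DNA elements and mostly opposes it. Irf1 lies on chromosome 11 (53770014 to 53778374) and Irf2 on chromosome 8 (46739732 to 46847458). IRF7 is the amplifier of type I interferon production, abundant in plasmacytoid dendritic cells, and IRF5 acts downstream of Toll-like receptors in macrophages. Irf7 lies on chromosome 7 (141262706 to 141266481) and Irf5 on chromosome 6 (29526625 to 29541871). IRF8 directs the development of macrophages and dendritic cells and is also induced by interferon gamma, while IRF4 acts in lymphocytes, dendritic cells and the melanocyte lineage. Irf8 lies on chromosome 8 (120736358 to 120756694) and Irf4 on chromosome 13 (30749226 to 30766976). Irf7 was the only member on the minus strand.

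Some of these genes share bases with a neighbour. Irf3 overlaps Bcl2l12, Irf5 overlaps Tnpo3 and Irf7 overlaps Phrf1, each on the opposite strand, and Irf9 overlaps Rnf31 on the same strand. Libraries were strand-specific, but the strand setting of the counting is not given in the sources used here, so reads in the shared bases could have been assigned to either gene. Values of Irf3, Irf5, Irf7 and Irf9 carry that limit. Irf8 overlaps Gm20388 on the same strand, which had 0 counts over all libraries. Irf1 and Irf2 overlap genes on the opposite strand whose counts were at most 0.432% of the member's own.

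Per kilobase of exon, the members had levels of the same order. Lengths were those of all annotated exons of a gene merged, which for Irf7 is a single block of 3776 bases. The order per kb depends on these lengths, which are not those of 1 transcript. In the time course the median level was highest for Irf7, at 13 CPM per kb, followed by Irf1 at 10.4, Irf2 at 10.3, Irf3 at 9.33, Irf5 at 7.83, Irf9 at 7.15, Irf4 at 3.82 and Irf8 at 3.11. Neighbours in this order often swapped places, since Irf7 exceeded Irf1 in 17 of 30 tumors, Irf1 exceeded Irf2 in 16 and Irf5 exceeded Irf9 in 15. The clearest step was between Irf9 and Irf4, with Irf9 higher per kb in 29 of 30 tumors. At day 7 the highest median was that of Irf3, at 10.4 CPM per kb, and the lowest was again that of Irf8, at 1.56. There Irf7 had a median of 6.65 and Irf5 of 3.41 CPM per kb, and Irf7 was above Irf5 in 17 of 18 tumors. The experiments were sequenced and normalized separately, so these orders hold within each of them.

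The members differed widely in how much they varied between tumors of the same group. The SD within groups, on the scale of log2(CPM + 0.5), was 1.07 for Irf1, 0.90 for Irf8, 0.83 for Irf7, 0.72 for Irf5, 0.52 for Irf4, 0.34 for Irf2, 0.18 for Irf3 and 0.16 for Irf9 in the time course. The median of the 7469 genes with a mean of 10 to 100 CPM was 0.27, and 98.1% of them varied less than Irf1, while 8.88% varied less than Irf9. At day 7 the same SD was 0.46 for Irf1, 0.63 for Irf8, 0.73 for Irf7, 0.58 for Irf5, 0.28 for Irf4, 0.40 for Irf2, 0.17 for Irf3 and 0.20 for Irf9, beside a median of 0.23 over 7557 genes. Irf3 and Irf9 thus sat below the median of comparable genes in both experiments, and the other members sat above it.

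**Figure D1:**
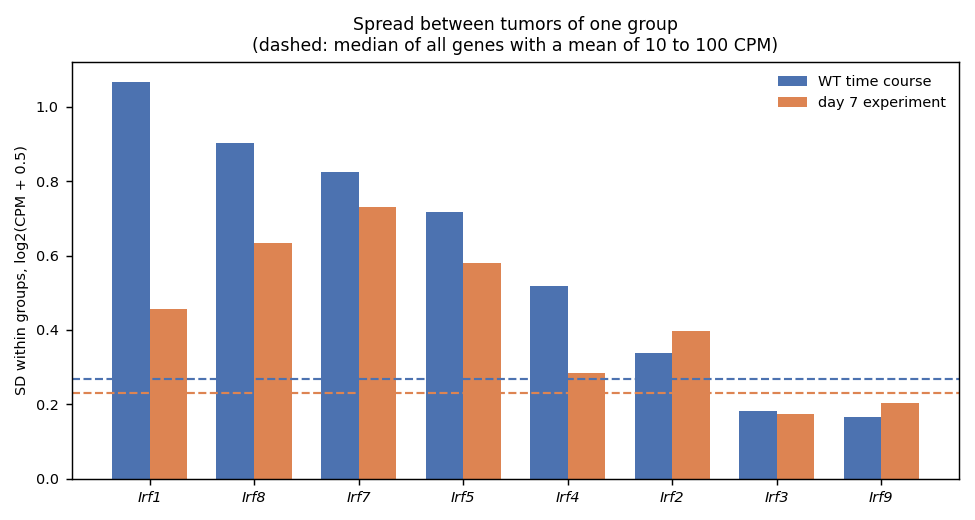
Bars give the SD of log2(CPM + 0.5) between tumors of the same group for each Irf gene, in the time course and at day 7, and dashed lines give the median over all genes with a mean of 10 to 100 CPM. Irf1 reaches 1.07 in the time course, while Irf3 and Irf9 stay below the dashed line of their experiment in both.

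In absolute terms, Irf1 ranged 23.8-fold between the 30 tumors of the time course, from 15.7 to 374 CPM, and Irf8 ranged 19.9-fold, from 8.21 to 163 CPM. Irf7 ranged 12.5-fold and Irf5 ranged 8.04-fold. Irf4 ranged 4.56-fold, Irf2 3.08-fold, Irf3 1.89-fold and Irf9 1.53-fold. A single IgG tumor at day 1, tumor 4, held the highest Irf1, Irf2, Irf5 and Irf8 of the time course, at 374, 167, 63.5 and 163 CPM. In that tumor Irf3, at 36 CPM, was inside the range of the other tumors.

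**Figure D2:**
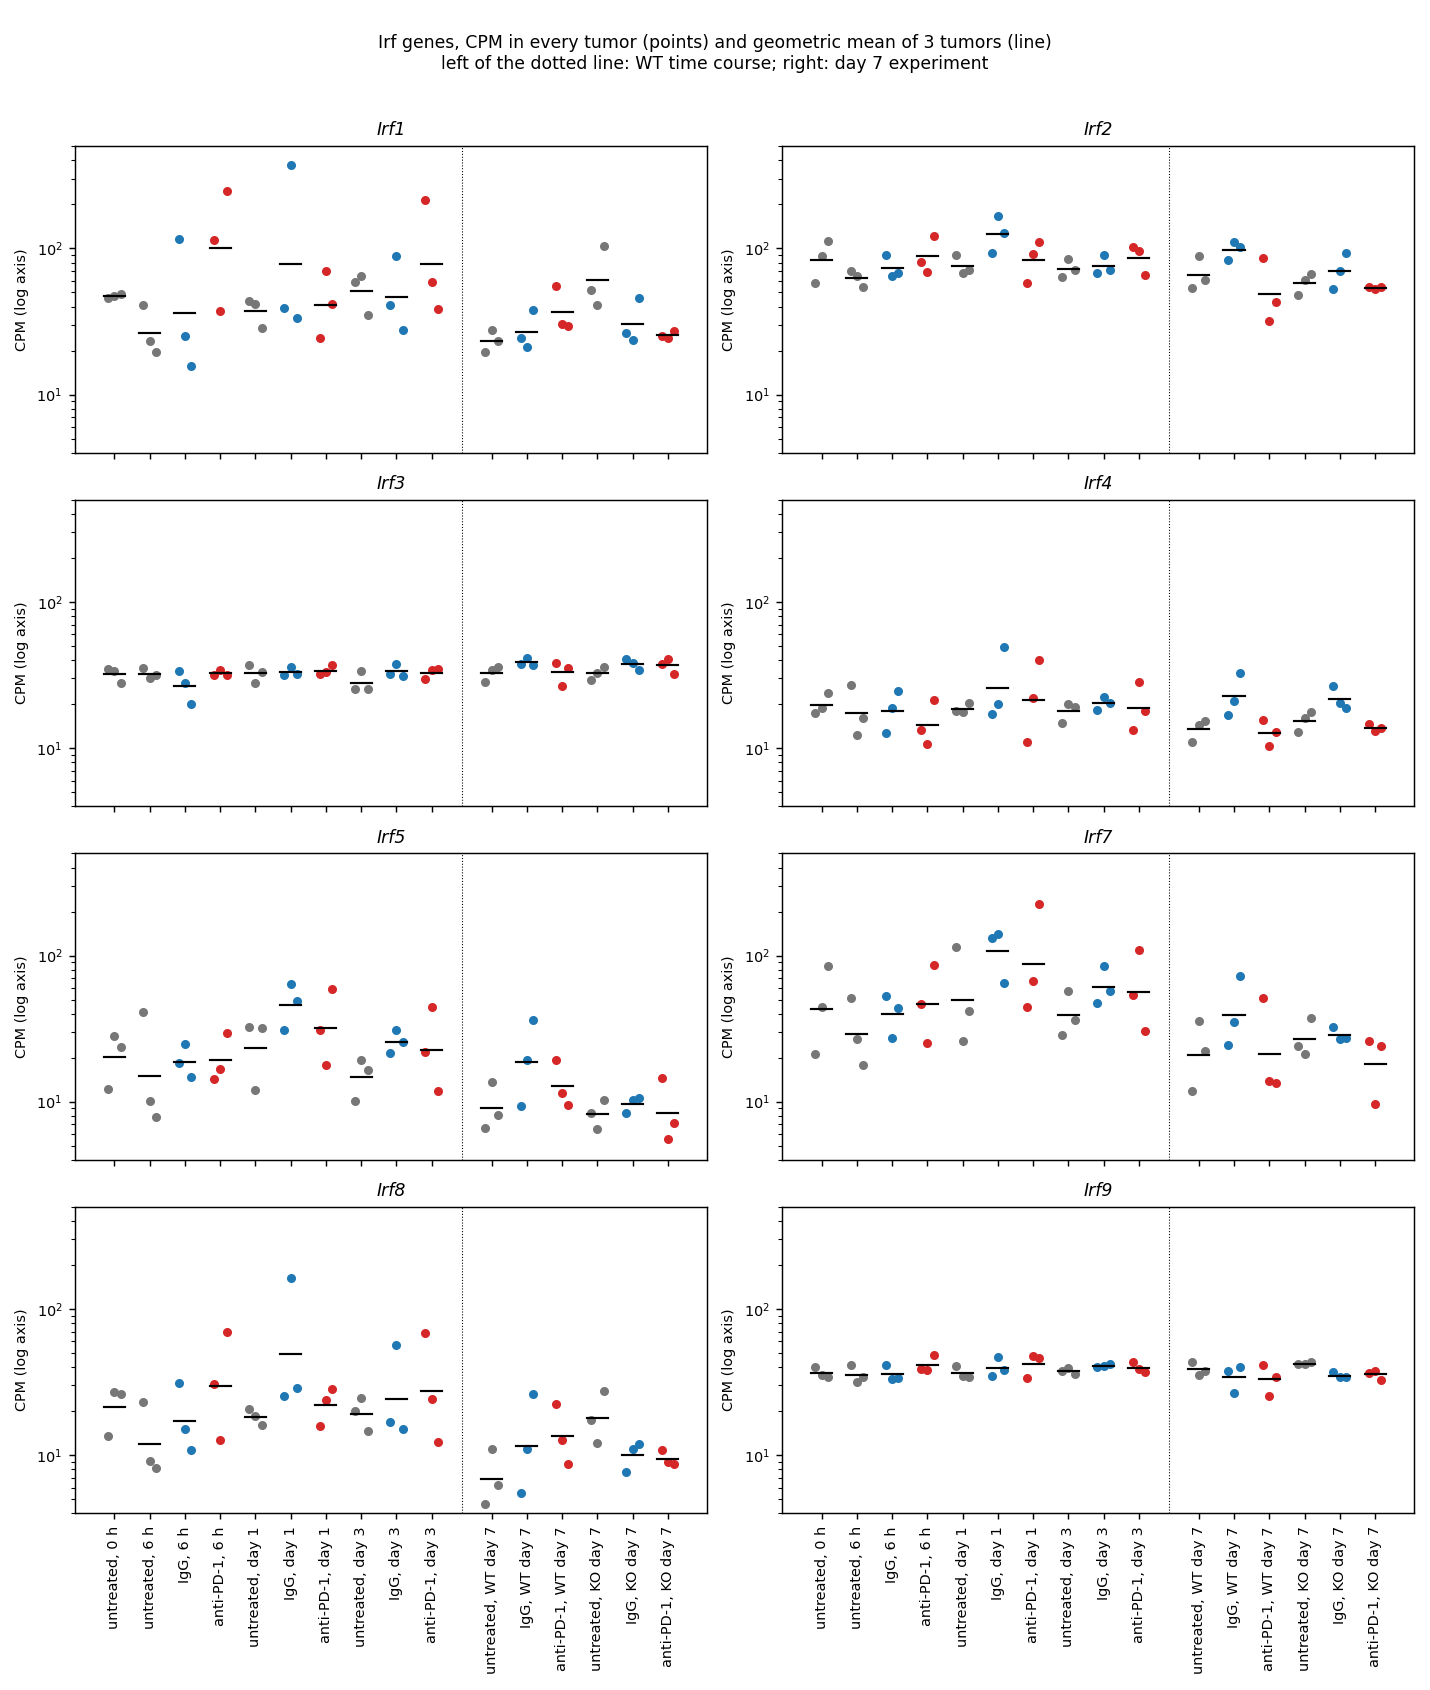
Each panel shows 1 Irf gene, with CPM on a log axis and 1 point per tumor for the 16 groups, untreated in grey, IgG in blue and anti-PD-1 in red, and a line at the geometric mean of the 3 tumors. Irf3 and Irf9 form flat bands, whereas single tumors of the IgG and anti-PD-1 groups stand high for Irf1 and Irf8, up to 374 CPM for Irf1.

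The first question of the design was whether anti-PD-1 changed the tumors within hours. For Irf1 at 6 hours, the anti-PD-1 tumors held 114, 37.2 and 246 CPM. The IgG tumors held 117, 25.3 and 15.7 CPM, and the untreated ones 41.2, 23.1 and 19.7 CPM. In all, 2 anti-PD-1 tumors and 1 IgG tumor were above 100 CPM, and the anti-PD-1 and IgG groups overlapped. Among the anti-PD-1 and IgG tumors of 6 hours, markers of other tissues were high in the same 3 tumors. Summed CPM of 4 skeletal muscle markers was 589, 459 and 193 in them and 5.20 to 9.46 in the other 3 anti-PD-1 and IgG tumors of 6 hours, and that of 4 keratinocyte markers was 169, 56.6 and 182 against 0.737 to 1.22. Summed CPM of 5 T cell markers was 20.7, 29.3 and 19 against 3.76 to 6.11, and no marker of these lists was at 0 in either group. Untreated tumors of 6 hours, with Irf1 at 19.7 to 41.2 CPM, had muscle sums of 37.9 to 658 CPM and keratinocyte sums of 7.64 to 18.6 CPM. Untreated tumors of 0 hours, with Irf1 at 45.7 to 49 CPM, had sums of 570 to 3864 and 14.2 to 3340 CPM. The part of these markers in the Irf1 values was not tested. The log2 fold change of anti-PD-1 over IgG was 1.33 ± 0.80 (SE) with an adjusted p of 0.97 in edgeR's quasi-likelihood test. Its approximate 95% interval, -0.34 to 3.00, includes 0. It was 0.56 without the anti-PD-1 tumor 5 and 2.76 without the IgG tumor 1. Against untreated tumors the log2 fold change was 2.24 ± 0.82, with an unadjusted p of 0.012 and an adjusted p of 1, and it was 1.43 without the anti-PD-1 tumor 5.

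Irf8 went the same way in the same tumors. It held 30.5, 12.7 and 69.5 CPM after anti-PD-1 at 6 hours, 31.3, 15 and 10.8 CPM after IgG, and 23.1, 9.07 and 8.21 CPM without treatment. Here too the groups overlapped, and the anti-PD-1 tumor with the most Irf1 was the one with the most Irf8. The log2 fold change over IgG was 0.98 ± 0.69 (edgeR, adjusted p = 1). Over untreated tumors it was 1.48 ± 0.70, and 0.67 without the anti-PD-1 tumor 5.

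Irf7 and Irf3, the factors that act directly downstream of nucleic acid sensors, had smaller fold changes at 6 hours. Irf7 was at 46.8, 25.3 and 86.1 CPM after anti-PD-1, at 52.7, 27.2 and 44 CPM after IgG and at 51, 26.8 and 17.9 CPM in untreated tumors. Irf3 was at 31.8, 34.3 and 31.6 CPM, at 33.5, 27.9 and 19.9 CPM and at 35.4, 30.2 and 31.6 CPM in the same groups. All groups overlapped for both genes. The log2 fold change of anti-PD-1 over IgG was 0.35 ± 0.61 for Irf7, with an approximate 95% interval of -0.92 to 1.62, and 0.26 ± 0.17 for Irf3, with an interval of -0.08 to 0.61. Neither passed the test (edgeR, adjusted p = 1 and 0.98).

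None of the 8 members was called at 6 hours between anti-PD-1 and IgG, and 0% of the 26848 genes tested were. At an unadjusted p under 0.05 the count was 0 of 8 members, beside 4.38% of all genes. The median log2 fold change was 0.28 over the 8 members and -0.07 over all genes tested. Against untreated tumors at 6 hours, Irf1 and Irf8 had an unadjusted p under 0.05, beside 3.3% of all genes, with no gene called. DESeq2 called no member in either comparison.

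At day 1 the difference between anti-PD-1 and IgG pointed the other way, and it rested on 1 tumor. Irf1 was at 24.3, 69.7 and 41.4 CPM after anti-PD-1, at 39.1, 374 and 33.5 CPM after IgG and at 43.5, 41.4 and 28.6 CPM in untreated tumors. The IgG tumor 4 was the only value above 100 CPM, and the remaining 8 tumors of that day lay between 24.3 and 69.7 CPM. The log2 fold change of anti-PD-1 over IgG was -1.72 ± 0.81 with that tumor and 0.27 ± 0.73 without it. Irf8 was at 15.8, 24 and 28.3 CPM after anti-PD-1, at 25.4, 163 and 28.7 CPM after IgG and at 20.8, 18.5 and 16 CPM in untreated tumors. Anti-PD-1 differed from IgG by -1.67 ± 0.70 on the log2 scale with that tumor and by -0.28 ± 0.66 without it. For Irf2 these values were -0.58 ± 0.26 and -0.38 ± 0.29. These 3 members had an unadjusted p under 0.05 with all tumors, beside 3.64% of all genes, and none had one without that tumor. The same 3 members were under 0.05 between IgG and untreated tumors at day 1, beside 5.43% of all genes, and there the log2 fold change of Irf1 was 1.98 ± 0.82 with the tumor and -0.017 ± 0.73 without it.

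The IgG tumor 4 of day 1 also had the most Ifng, the gene of interferon gamma, with 287 counts or 6.95 CPM. The tumors next in Ifng were the anti-PD-1 tumor 5 at 6 hours, at 3.72 CPM, and the anti-PD-1 tumor 3 at day 3, at 2.62 CPM. These were also the tumors next in Irf1, at 246 and 214 CPM. Ifnb1, the gene of interferon beta, had counts in 4 of the 48 tumors, with 16 counts in all. Summed CPM of 5 T cell markers was 43.6, 29.3 and 29.5 in these 3 tumors, within a range of 1.40 to 57.6 over the time course, and the part of T cell content in the Irf1 values was not tested.

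At day 3, on which the second dose was given, Irf1 was at 214, 59 and 38.6 CPM after anti-PD-1, at 40.8, 88.4 and 27.5 CPM after IgG and at 59.3, 64.6 and 35.2 CPM in untreated tumors. The anti-PD-1 tumor 3 was the highest, and the groups overlapped. Over IgG the log2 fold change was 0.99 ± 0.79, and it was -0.14 without the anti-PD-1 tumor 3. Irf7 at day 3 was at 54.1, 109.7 and 30.4 CPM after anti-PD-1, at 47.3, 85.1 and 57.4 CPM after IgG and at 28.7, 57.5 and 36 CPM in untreated tumors, a log2 fold change of 0.03 ± 0.61 over IgG. Irf3 at day 3 was at 29.7, 34.2 and 34.6 CPM after anti-PD-1, at 32.1, 37.7 and 31 CPM after IgG and at 25.4, 33.7 and 25.2 CPM in untreated tumors. Irf8 at day 3 was at 68.7, 24.4 and 12.2 CPM after anti-PD-1, at 16.9, 57.1 and 15 CPM after IgG and at 20.03, 24.6 and 14.6 CPM in untreated tumors. The tumors with the most Irf1 in each treated group were again those with the most Irf8. No member was called at day 3, with 0% of all genes called, and none had an unadjusted p under 0.05, beside 2.14% of all genes.

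**Figure D3:**
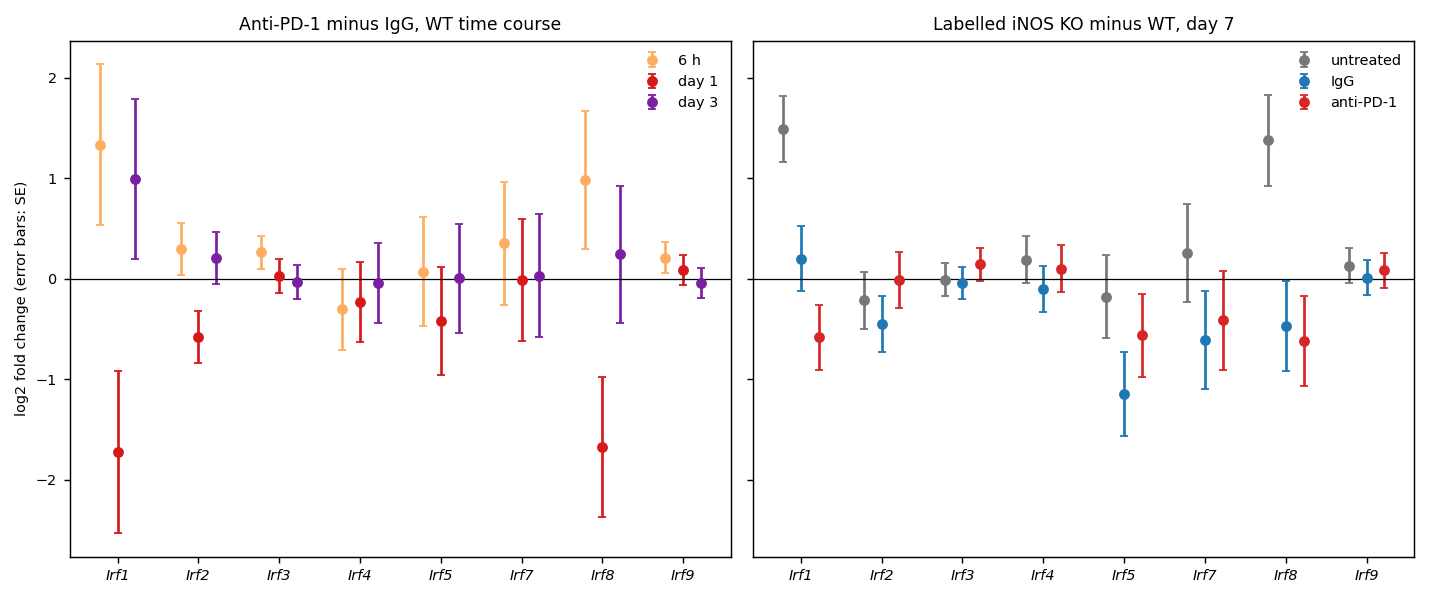
Points are log2 fold changes from the edgeR fits and bars are their SE, for anti-PD-1 minus IgG at 6 hours, day 1 and day 3 in WT mice (left) and for KO minus WT tumors at day 7 in the untreated, IgG and anti-PD-1 groups (right). Irf1 is at 1.33 at 6 hours and -1.72 at day 1 in the left panel, and at 1.48 in untreated tumors and -0.58 after anti-PD-1 in the right panel.

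The difference between 6 hours and day 1 in the anti-PD-1 effect was tested as an interaction, which was added after the values were seen. For Irf1 it was 3.06 ± 1.14 on the log2 scale with an unadjusted p of 0.013 and an adjusted p of 1, and it was 1.08 ± 0.97 without the IgG tumor 4 of day 1. Irf2 and Irf8 were under the unadjusted 0.05 as well, so the count was 3 of 8 members beside 4.31% of all genes. No gene was called.

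Irf7 was the member with the smallest p between times, although no gene passed the adjusted threshold. Averaged over the 3 treatments, Irf7 was higher at day 1 than at 6 hours by 1.15 ± 0.36 on the log2 scale (edgeR, unadjusted p = 0.0033, adjusted p = 0.18). At day 1 it was at 44.7, 66.7 and 224 CPM after anti-PD-1, at 133, 141 and 65.2 CPM after IgG and at 114, 26.2 and 41.7 CPM without treatment. The day 1 groups reached above 100 CPM in 4 of 9 tumors, and the 6 hour groups in none. Irf5 was higher by 0.83 ± 0.31 and Irf2 by 0.34 ± 0.15, so 3 of 8 members had an unadjusted p under 0.05, beside 16.9% of all genes. DESeq2 called Irf7 in this comparison, with an adjusted p of 0.047, and no other member, beside 892 of 12014 genes. Summed CPM of 6 macrophage markers, among them Csf1r and C1qa, was 275 to 555 at 6 hours and 361 to 1334 at day 1, and its part in the Irf7 difference was not tested. Irf3 was at 32, 33 and 36.8 CPM after anti-PD-1, at 31.7, 36 and 32.1 CPM after IgG and at 36.8, 28 and 33.1 CPM in untreated tumors on day 1, a log2 difference of 0.12 ± 0.10 from 6 hours.

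At 0 hours, before any treatment, Irf1 was at 45.7, 47.1 and 49 CPM, a mean of 47.3 ± 1.65 (SD, n = 3), the tightest of its 16 groups relative to its level. Irf7 in the same tumors spread over 21.2, 44.6 and 85 CPM, Irf3 was at 34.8, 33.9 and 28.1 CPM, and Irf8 was at 13.5, 27.3 and 26.4 CPM. Untreated tumors at later times had Irf1 log2 levels that differed from 0 hours by -0.76 ± 0.79 at 6 hours, -0.32 ± 0.79 at day 1 and 0.17 ± 0.79 at day 3. Over the 16 comparisons of the time course with a direction, 0 of 128 tests of members passed the adjusted threshold and 14 were under an unadjusted 0.05. None of the 32 tests of Irf3 and Irf9 was under 0.05, and their log2 fold changes lay between -0.26 and 0.26. No group stood apart from the next in the order of its means by more than the SD within groups for Irf1, Irf4, Irf5, Irf7, Irf8 and Irf9. For Irf2 and Irf3 a single step did, that below the IgG day 1 group (log2 0.50) for Irf2 and a step of 0.20 for Irf3.

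At day 7 the design asked whether host iNOS changes the tumor's response. In the comparisons of 2 groups Irf1 was the only member called by edgeR, and it was called between untreated tumors. It was at 52, 41.1 and 104 CPM in untreated tumors labelled KO, and at 19.5, 27.7 and 23.2 CPM in untreated WT tumors. Every tumor labelled KO was above every WT tumor. Here and below, the share of all genes whose groups were apart in this way was not counted. The log2 fold change was 1.48 ± 0.33 with an adjusted p of 0.041 in edgeR's quasi-likelihood test, beside a median of 0.49 over all genes. Without the 3 libraries high in receptor genes it was 1.63 ± 0.32 (adjusted p = 0.036), and that median was 0.01. The call was lost in 3 of the 6 fits that left out 1 untreated tumor. Without the KO tumor 4 the log2 fold change was 0.97 with an adjusted p of 0.098. The adjusted p was 0.16 without the WT tumor 1 and 0.093 without the WT tumor 3.

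Of the 8 members 1 was called in this comparison, beside 0.587% of the 30837 genes tested. Irf8 was at 17.5, 12.1 and 27.4 CPM in untreated tumors labelled KO and at 4.66, 11.1 and 6.22 CPM in WT, a log2 fold change of 1.38 ± 0.45 that did not pass the test (edgeR, adjusted p = 0.23). It was 1.43 ± 0.47 without the libraries high in receptor genes (adjusted p = 0.25). Its groups did not overlap either. With Irf1 and Irf8, 2 of 8 members had an unadjusted p under 0.05, beside 16.5% of all genes. Irf7 was at 24.2, 21.2 and 37.5 CPM against 11.8, 35.5 and 22.1 CPM, and Irf3 at 29.2, 32.7 and 35.8 CPM against 28.2, 34.3 and 35.8 CPM, with log2 fold changes of 0.26 ± 0.49 and -0.01 ± 0.16. The median over the 8 members was 0.16.

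Summed CPM of the macrophage markers was 223 to 325 in the untreated tumors labelled KO and 273 to 584 in the WT ones, and Ptprc, the pan-leukocyte gene, was at 17.3 to 34.3 and 21.6 to 44.2 CPM. Both ranges overlapped between the groups. T cell markers did not overlap, with summed CPM of 10.8, 4.71 and 6.00 in the tumors labelled KO and of 1.79, 3.39 and 2.89 in the WT ones. The 10.8 was that of the KO tumor 1, a library high in receptor genes. Dendritic cell markers, 6 in all, summed to 11.2 to 19.4 and to 9.92 to 11.7 CPM. None of these markers was at 0 in either group, and their part in the Irf1 and Irf8 differences was not tested. Ifng was at 0.41, 0 and 0.37 CPM in the tumors labelled KO and had no count in the 3 WT tumors, whose floor of 3 counts corresponds to 0.197 CPM or less in each library of this experiment.

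Irf1 was not called between the hosts after IgG or after anti-PD-1. After IgG, Irf1 was at 26.5, 23.5 and 46.1 CPM in tumors labelled KO and at 24.5, 21.1 and 37.8 CPM in WT tumors, which differ by 0.20 ± 0.32 on the log2 scale. After anti-PD-1 it was at 25.1, 24.5 and 27.3 CPM in tumors labelled KO and at 55, 30.4 and 29.3 CPM in WT tumors, so that every KO tumor was below every WT tumor. That log2 fold change was -0.58 ± 0.32 (edgeR, adjusted p = 0.20) beside a median of -0.91 over all genes. Without the 3 libraries high in receptor genes, 1 WT tumor remained, and the value was -1.06 ± 0.39 with an adjusted p of 1. Without the WT tumor 2 it was -0.17. The T cell markers summed to 1.93, 1.28 and 2.96 CPM in these KO tumors and to 9.15, 18.8 and 9.32 CPM in the WT ones, and the dendritic cell markers to 9.65 to 10.6 and 18.4 to 31.7 CPM. Neither list overlapped between the hosts. The T cell sums of 18.8 and 9.32 CPM were those of the WT tumors 3 and 4, both high in receptor genes. The part of these lists in the Irf1 values was not tested.

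For Irf3, anti-PD-1 tumors labelled KO held 37.8, 41 and 32.2 CPM, and the WT ones held 38.2, 26.6 and 35.6 CPM. For Irf7 they held 25.9, 9.61 and 24 CPM, and the WT ones held 51.5, 13.9 and 13.4 CPM. Irf8 was at 10.9, 9.05 and 8.69 CPM and at 22.4, 12.7 and 8.75 CPM. These genes overlapped between the hosts. The log2 fold changes of KO over WT were 0.14 ± 0.16 for Irf3 and -0.41 ± 0.49 for Irf7 (edgeR, adjusted p = 0.53 and 0.55). The value of Irf7 was 0.59 without the WT tumor 2 and -1.34 without the libraries high in receptor genes. No member was called between the hosts after IgG or after anti-PD-1, with 0% of all genes called in each. At an unadjusted p under 0.05 the counts were 1 of 8 after IgG, that of Irf5 at -1.14 ± 0.41, beside 6.26% of all genes, and 0 of 8 after anti-PD-1, beside 32.3%. Irf5 after IgG was at 8.35, 10.3 and 10.6 CPM in tumors labelled KO and at 9.32, 19.1 and 36.2 CPM in WT tumors, and the log2 fold change was -0.54 without the WT tumor 3. Averaged over the 3 treatments no member was called between hosts, beside 0.00973% of all genes.

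Within the hosts labelled KO, the anti-PD-1 tumors all had less Irf1 than the untreated ones, and the IgG tumors overlapped them. Relative to untreated tumors Irf1 was at -1.04 ± 0.32 after IgG and -1.36 ± 0.33 after anti-PD-1 on the log2 scale, and neither passed the test (edgeR, adjusted p = 0.24 and 0.13). Without the 3 libraries high in receptor genes, of which the untreated KO tumor 1 enters here, they were -1.17 ± 0.32 and -1.49 ± 0.32 (adjusted p = 0.17 and 0.12). These comparisons share the untreated tumors labelled KO. Irf1 was called after anti-PD-1 by DESeq2, with an adjusted p of 0.0068, beside 776 of 22411 genes. In edgeR it was called without the untreated tumor 1 or 2. Without the untreated tumor 4 the values were -0.52 after IgG and -0.84 after anti-PD-1. No member was called by edgeR, beside 0.188% of genes after IgG and 0.0422% after anti-PD-1. At an unadjusted p under 0.05 there were 2 of 8 members in each, Irf1 and Irf4 after IgG and Irf1 and Irf8 after anti-PD-1, beside 15.6% and 17.3% of all genes. In WT hosts the log2 fold change of Irf1 was 0.71 ± 0.32 after anti-PD-1 and 0.25 ± 0.32 after IgG. There 2 members, Irf1 and Irf8, were under the unadjusted 0.05 after anti-PD-1, beside 31.9% of all genes (1.195 ± 0.39 and 1.58 ± 0.56 without the high receptor-gene libraries, adjusted p = 1 for both), and 3 members, Irf4, Irf5 and Irf8, after IgG, beside 7.83%.

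The change from untreated to anti-PD-1 in hosts labelled KO minus the same change in WT hosts was added after the values were seen. It was -2.06 ± 0.46 on the log2 scale for Irf1 and -2.00 ± 0.63 for Irf8 (edgeR, adjusted p = 0.024 and 0.043), against a median of -1.36 over all genes. The 2 members were called beside 22.4% of all genes, and at an unadjusted p under 0.05 they were again 2 of 8, beside 46.6%. This comparison holds all 3 libraries high in receptor genes. Without them Irf1 was at -2.69 ± 0.50 and Irf8 at -2.62 ± 0.73, with a median of 0.00 over all genes, and neither was called (adjusted p = 0.087 and 0.69). That fit has 1 anti-PD-1 WT tumor and 2 untreated KO tumors, whose spread is assumed to be that of the other groups, and 5 of its 26623 genes were called. Leaving out 1 tumor at a time, Irf1 was called in each of 12 fits, at -2.27 to -1.51, and the call of Irf8 was lost in 7, which were those without a KO anti-PD-1 tumor, the untreated WT tumor 1 or 3, or the anti-PD-1 WT tumor 3 or 4. Cell type markers moved with the same groups. From untreated to anti-PD-1 tumors, the T cell markers were lower in hosts labelled KO, at 1.28 to 2.96 after 4.71 to 10.8 summed CPM, and higher in WT hosts, at 9.15 to 18.8 after 1.79 to 3.39. Libraries high in receptor genes gave the 10.8 of the untreated KO tumor 1 and the 18.8 and 9.32 of the anti-PD-1 WT tumors 3 and 4. The anti-PD-1 WT tumor 2 was at 9.15, and the untreated KO tumors 2 and 4 were at 4.71 and 6.00. The dendritic cell markers summed to 11.2 to 19.4 CPM in untreated and 9.65 to 10.6 CPM in anti-PD-1 tumors of hosts labelled KO, and to 9.92 to 11.7 and 18.4 to 31.7 CPM in WT hosts. The dendritic cell ranges hold the same 3 libraries, and the part of these markers in the calls was not tested. With the receptor-gene level subtracted, 1 of the 8 members was called, beside 568 of 25373 genes. With that level as a covariate 0 members were called, beside 0 of 30837 genes. For IgG in place of anti-PD-1 the same difference was -1.28 ± 0.46 for Irf1 and -1.85 ± 0.63 for Irf8 (edgeR, adjusted p = 0.22 for both), with 2 of 8 members under an unadjusted 0.05 beside 19.4% of all genes, and 0% called. With IgG as the control for anti-PD-1, the change differed between the hosts by -0.78 ± 0.46 for Irf1 (edgeR, adjusted p = 0.69).

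Irf4 had its highest values in the IgG groups at day 7. In WT hosts it was at 17, 21 and 32.8 CPM after IgG, at 15.5, 10.3 and 12.9 CPM after anti-PD-1 and at 11, 14.5 and 15.4 CPM in untreated tumors. In hosts labelled KO it was at 26.7, 20.5 and 18.9 CPM after IgG, at 14.6, 13.1 and 13.8 CPM after anti-PD-1 and at 12.9, 16.2 and 17.6 CPM in untreated tumors. In each host, the 3 IgG tumors were above the 6 others, at no less than 17 against 15.5 CPM in WT and 18.9 against 17.6 CPM in KO. The share of all genes apart in this way was not counted. The log2 fold change of anti-PD-1 over IgG was -0.87 ± 0.23 in WT and -0.67 ± 0.23 in KO (edgeR, unadjusted p = 0.0013 and 0.0089), and neither passed after adjustment (adjusted p = 0.31 and 1). Under an unadjusted 0.05 were 2 of 8 members in WT, Irf2 and Irf4, beside 16.3% of all genes, and 1 of 8 in KO, beside 1.94%. Without the high receptor-gene libraries the WT value was -0.60 ± 0.32 for Irf4 and -0.19 ± 0.28 for Irf2. Across any difference among the 6 groups, no member was called, beside 1.66% of all genes, and the lowest adjusted p were 0.056 for Irf1 and 0.071 for Irf4. In the time course, Irf4 after IgG overlapped the other groups on each day. Macrophage markers at day 7 summed to 381 to 1341 CPM in IgG tumors of WT hosts and 282 to 542 CPM in those labelled KO, and 155 to 646 and 127 to 460 CPM after anti-PD-1. Their part in the Irf4 values was not tested.

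For IgG at day 7, Irf3 was at 40.7, 38.3 and 34.1 CPM in tumors labelled KO and at 37.9, 41.4 and 37.2 CPM in WT, Irf7 was at 32.5, 26.9 and 27.1 CPM and at 24.3, 34.9 and 72.4 CPM, and Irf8 was at 7.64, 11.1 and 11.9 CPM and at 5.49, 11 and 26.1 CPM. The groups overlapped for these genes. Over the 13 comparisons with a direction at day 7, 3 of 104 tests of members were called by edgeR, all described above, and 20 were under an unadjusted 0.05. None of the 26 tests of Irf3 and Irf9 was under 0.05, and their log2 fold changes lay between -0.27 and 0.25. In the order of group means, a single step exceeded the SD within groups for each of Irf1, Irf2 and Irf4, which was the step below the untreated KO group for Irf1 (log2 0.72), and none did for the other 5 members.

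The members were then compared with each other over tumors, as deviations of log2(CPM + 0.5) from the mean of the tumor's own group. Mean differences between treatments, times and hosts thus do not enter, but differences between the tumors of a treated group remain. In the time course, Irf1 and Irf8 moved together most closely, with Pearson's r of 0.93 and Spearman's rho of 0.92 over 30 tumors (permutation p = 2e-05 for each, two-sided, adjusted p = 0.00056 and 0.0011 over the relations computed). Without the 2 tumors farthest from the median of Irf1, r was 0.92. Irf2 moved with Irf7 (r = 0.79, rho = 0.81) and with Irf8 (r = 0.79, rho = 0.80), and Irf5 moved with Irf7 (r = 0.70, rho = 0.70), with permutation p of 0.0001, 1e-05 and 0.0015 for r, of which 1e-05 is the smallest the permutations can give. For Irf1 and Irf4 no relation passed the test (r = -0.09, rho = -0.01, permutation p = 0.76 and 0.96). Of the 28 pairs, 11 passed the adjusted threshold by both r and rho in the time course, and 6 did so at day 7.

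At day 7 the closest pair was Irf5 and Irf8 (r = 0.90, rho = 0.88 over 18 tumors, permutation p = 7e-05 and 0.00011), followed by Irf5 and Irf7 (r = 0.84, rho = 0.85, permutation p = 0.00074 and 0.0012). Without the 2 tumors farthest from the median of Irf5 these r were 0.82 for both. Irf1 and Irf8 had r = 0.73 and rho = 0.63 (permutation p = 0.0057 and 0.024, adjusted p = 0.02 and 0.057). Irf3 and Irf9, the members of low spread, were in none of the pairs that passed by both measures at day 7. Without the 3 libraries high in receptor genes and the WT anti-PD-1 tumor then left alone in its group, r over 14 tumors was 0.89 for Irf5 and Irf8, 0.85 for Irf5 and Irf7 and 0.70 for Irf1 and Irf8.

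**Figure D4:**
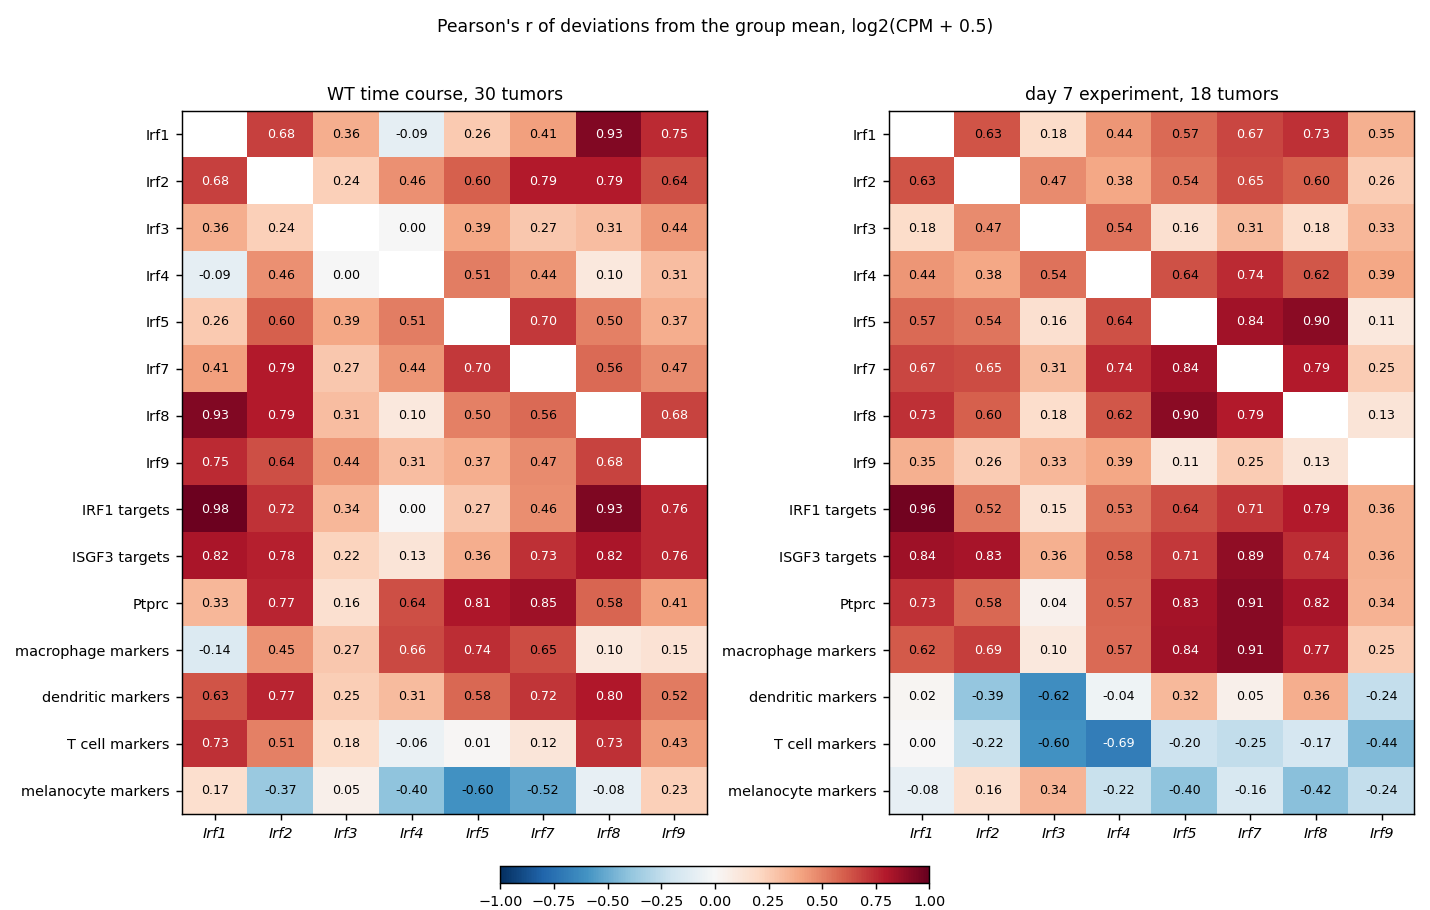
Cells give Pearson's r between tumors for deviations of log2(CPM + 0.5) from the group mean, with the Irf genes in columns and, in rows, the Irf genes and the mean log2 level of gene lists, for the time course (left, 30 tumors) and day 7 (right, 18 tumors). Irf1 is at 0.98 and 0.96 with the IRF1 target list in both, while its r with the macrophage markers is -0.14 in the time course and 0.62 at day 7.

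The target lists gave the closest relations of all. The mean log2 level of 18 genes known to be IRF1 targets, among them Gbp2, Psmb9 and Cxcl9, followed Irf1 with r of 0.98 and rho of 0.97 in the time course (permutation p = 1e-05, the smallest possible) and r of 0.96 and rho of 0.93 at day 7 (permutation p = 6e-05 for each). Irf8 followed the same list with r of 0.93 in the time course. A list of 18 ISGF3 targets, among them Isg15, Ifit1 and Mx1, had r of 0.82 with Irf1, 0.82 with Irf8, 0.78 with Irf2, 0.76 with Irf9 and 0.73 with Irf7 in the time course. With Irf3 and Irf4, r was 0.22 and 0.13. Over the 18 tumors of day 7, r with the ISGF3 list was 0.84 for Irf1, 0.74 for Irf8, 0.83 for Irf2 and 0.89 for Irf7. It was 0.36 for Irf9 (rho = 0.09), 0.36 for Irf3 and 0.58 for Irf4. Over the 14 tumors used above, r was 0.84 for Irf1, 0.77 for Irf8, 0.61 for Irf2, 0.83 for Irf7 and -0.14 for Irf9 (rho = -0.24). Over the 14 tumors of day 7, the r of Irf1 with the IRF1 target list was 0.97. Of the 96 relations between members and lists in each experiment, 26 passed the adjusted threshold by both measures in the time course and 18 at day 7.

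Markers of cell types divided the members in another way. In the time course, Irf7 and Irf5 followed Ptprc (r = 0.85 and 0.81, rho = 0.85 and 0.79, permutation p = 1e-05 and 0.00016) and the macrophage markers (r = 0.65 and 0.74). Irf1 had r of 0.33 with Ptprc and of -0.14 with the macrophage markers, and 0.73 with the T cell markers (rho = 0.72, permutation p = 0.00026 and 0.00052). Irf8, known for dendritic cells, had r of 0.80 with 6 dendritic cell markers (rho = 0.81, permutation p = 0.00011 and 8e-05). Irf5 went against the melanocyte markers, with r of -0.60 (rho = -0.64, permutation p = 0.003 and 0.0045). At day 7, Irf7 again followed Ptprc and the macrophage markers (r = 0.91 for both), but the T cell list no longer followed Irf1 (r = 0.00). T cell markers summed to 1.28 to 19.6 CPM there. Irf1 followed Ptprc at day 7, with r of 0.73 (rho = 0.68, permutation p = 0.00024 and 0.00046). Over the 14 tumors without the libraries high in receptor genes, Irf7 had r of 0.91 with Ptprc and 0.88 with the macrophage markers, and Irf1 had 0.70 with Ptprc and 0.31 with the T cell markers. The r of Irf8 with the dendritic cell markers was 0.36 over the 18 tumors and 0.82 over the 14.

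**Figure D5:**
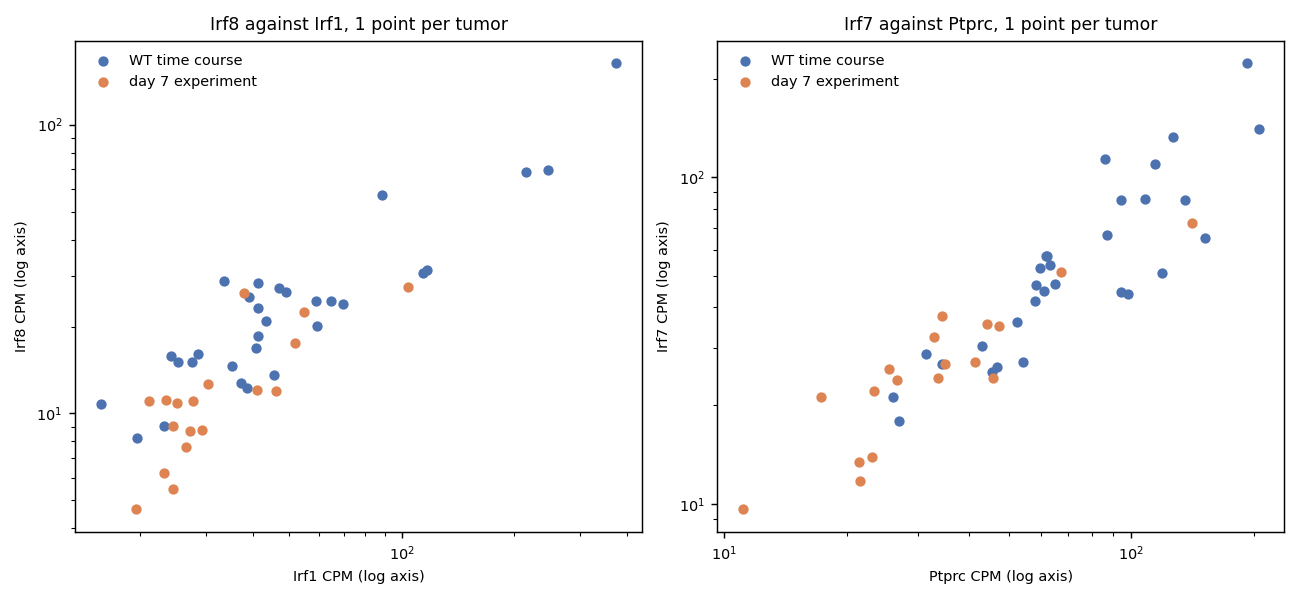
Each point is 1 tumor, blue for the time course and orange for day 7, with CPM of Irf8 against Irf1 on the left and of Irf7 against Ptprc on the right, all axes logarithmic. The tumor at the upper end of the left panel, at 374 CPM of Irf1 and 163 CPM of Irf8, is the IgG tumor 4 of day 1.

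The promoters of the 8 members were searched for the elements through which interferons act, which are gamma-activated sites (GAS) for interferon gamma and interferon-stimulated response elements (ISRE), bound by ISGF3, for type I interferons. RefSeq windows on GRCm38.p6 from 250 bases before to 50 bases after the annotated starts matched all 8 members by symbol, as 11 windows. The letters searched on both strands were TTCNNNGAA for GAS and, for ISRE, GAAA followed by any 2 bases and GAAA again. A GAS match was found in 3 members, Irf1, Irf2 and Irf8, in 3 of the 11 windows. It was found in 8.30% of 32851 windows of that length, with 1 chromosome left out. An ISRE match was found in 1 member, Irf2, in 1 of the 11 windows, and in 3.44% of the same 32851 windows. The stretches that hold them are shown 5′ to 3′ with the matches in capitals, and all 3 are on the plus strand.

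Irf1, chr11:53769899-53769957: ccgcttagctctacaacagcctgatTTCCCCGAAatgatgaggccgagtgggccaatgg

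Irf2, chr8:46739495-46739554: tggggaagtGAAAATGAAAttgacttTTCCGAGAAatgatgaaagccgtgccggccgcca

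Irf8, chr8:120736162-120736238: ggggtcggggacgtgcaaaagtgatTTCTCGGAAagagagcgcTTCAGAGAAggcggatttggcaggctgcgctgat

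The GAS match of Irf1 begins 90 bases before the start, that of Irf2 begins 224 bases before it, and the matches of Irf8 begin 171 and 153 bases before it. The ISRE match of Irf2 begins 241 bases before the start. The windows of Irf3, Irf4, Irf5, Irf7 and Irf9 hold neither run of letters. A match describes the letters only.

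The other genes of the pathway were described from lists of sensors, activators, partners, targets and interferons. For anti-PD-1 over IgG at 6 hours, no gene of these lists was called, with 0% called among all genes. The median log2 fold change there was 0.70 for the 18 IRF1 targets, 0.26 for the 18 ISGF3 targets, 0.26 for 9 sensors such as Tlr3 and Ifih1, 0.08 for 11 activators such as Tbk1 and Myd88, and 0.29 for 11 partners such as Batf2 and Spi1, against -0.07 over all genes. Socs1, a feedback inhibitor of cytokine signaling, was the IRF1 target with the smallest p, at 1.54 ± 0.80, and Cd274, which encodes PD-L1, was at 1.17 ± 0.76. At day 1 over 6 hours the gene with the smallest p was Myd88 (0.56 ± 0.15) among the activators, Spi1 (0.78 ± 0.24) among the partners and Tlr7 (0.85 ± 0.32) among the sensors, and none passed the test (edgeR, adjusted p = 0.18 for Myd88).

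Between untreated tumors labelled KO and WT at day 7, IRF1 targets were called with Irf1. Of the 18 targets, 7 were higher and 0 were lower past the threshold, and all 18 had a fold change above 0, with a median of 1.24 against 0.49 over all genes. Cxcl9, a T cell chemokine, was higher by 3.84 ± 0.64 on the log2 scale (edgeR, adjusted p = 0.0097), Gbp2, a guanylate-binding protein, by 3.27 ± 0.61 (adjusted p = 0.017) and Psmb9, an immunoproteasome subunit, by 2.11 ± 0.33 (adjusted p = 0.0072). Among 18 ISGF3 targets 1 was higher and 0 were lower, Ifit3 at 1.26 ± 0.27 (adjusted p = 0.038), and the median of 0.37 was below that of all genes. Among 11 partners 1 was higher, Batf2, at 2.09 ± 0.37 (adjusted p = 0.013). No sensor and no activator was called, with medians of 0.04 and -0.27. Without the libraries high in receptor genes the targets called were again 7, with Cxcl9 at 4.02 ± 0.58, Gbp2 at 3.54 ± 0.52 and Psmb9 at 2.07 ± 0.36 (adjusted p = 0.0086, 0.0086 and 0.018), beside 0.563% of all genes. There 2 ISGF3 targets were called, with Ifit3 at 1.38 ± 0.27 (adjusted p = 0.034), and Batf2 was at 2.23 ± 0.38 (adjusted p = 0.017). Of the 7 interferon genes listed, 2 passed the filter on low counts in each experiment, and neither was called between these untreated tumors. For the host difference of the anti-PD-1 change, 1 interferon gene, 13 IRF1 targets and 3 ISGF3 targets were called below 0, and 0 above it. Also called were 1 sensor and 1 partner below 0 and 1 activator above it. Of all genes 22.4% were called there, and that comparison holds all 3 libraries high in receptor genes.

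Finally, the 3 genes most alike to each member were taken by Pearson's r of log2(CPM + 0.5) over the 30 tumors of the time course, among 15102 genes with a mean of at least 1 CPM, with the r over the 18 day 7 tumors beside it. These day 7 tumors include the libraries high in receptor genes. The r describe the tumors and carry no test, and unlike those above they include the differences between groups. For Irf1 they were Gbp2 (0.97, day 7 0.93), Irgm2 (0.97, day 7 0.90) and Gbp4 (0.97, day 7 0.91). For Irf8 they were Nod1 (0.96, day 7 0.80), Tap1 (0.95, day 7 0.74) and Ciita (0.94, day 7 0.79). For Irf7 they were Sp100 (0.95, day 7 0.93), Ifi209 (0.94, day 7 0.96) and Gm1966 (0.93, day 7 0.86). With each of their genes, these 3 members had a day 7 r of 0.74 or more after rounding, as did Irf5, which follows.

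For Irf5 the genes were Myo1g (0.96, day 7 0.95), Laptm5 (0.95, day 7 0.74) and Prkcd (0.94, day 7 0.86), and for Irf2 they were Sp110 (0.93, day 7 0.46), Samhd1 (0.92, day 7 0.92) and Trafd1 (0.91, day 7 0.48). For the remaining 3 members the r in the time course were 0.75 to 0.80. For Irf9 the genes were Rnf213 (0.80, day 7 0.68), Ube2l6 (0.79, day 7 0.51) and Fcgr4 (0.78, day 7 0.33), for Irf4 they were Pip4k2a (0.80, day 7 0.71), Tnfrsf21 (0.79, day 7 0.67) and B3galnt1 (0.79, day 7 0.48), and for Irf3 they were Sh3bp1 (0.80, day 7 0.71), Scarna2 (0.75, day 7 0.01) and Grk2 (0.75, day 7 0.79). Several of these r did not carry over to day 7, such as those of Scarna2 and Fcgr4.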

How the data were processed

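Whole-tumor RNA of 48 tumors was sequenced with a strand-specific kit. The deposited values are whole-number counts per gene, made by the authors with cutadapt 1.8.1, STAR 2.7.7a and RSEM 1.3.0 on GENCODE annotation of mm10, per the labels and the study's methods, although the table's own name refers to another counter. CPM was computed from the library totals after filtering, scaled by edgeR's TMM factors. For the sensory receptor genes the unscaled totals were used. Each experiment was fitted alone with edgeR 4.0.16 (TMM, filterByExpr with a minimum count of 10, quasi-likelihood test over all groups, Benjamini-Hochberg adjustment, threshold 0.05), and DESeq2 1.42.0 was an alternative. The fits were tested on simulated data. Intervals of fold changes are approximate, and count floors cover counting error only. Groups came from sample titles. All 8 members were named in every comparison, with list genes of smallest p and the 3 most alike genes. Members and gene lists were chosen with earlier results of these data known. Same-numbered tumors did not deviate together, so the numbers were not used as pairs. Other settings tried were other size factors, no filter, a replicate block, only the groups compared, receptor-gene corrections and leaving out single tumors or, together, the 3 libraries high in receptor genes.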

Additional observations from a re-analysis of the deposited data

Results flagged for a closer look

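The change from untreated to anti-PD-1 at day 7 differed between hosts labelled KO and WT for Irf1, by -2.06 on the log2 scale, and for Irf8, by -2.00. Both passed an interaction test in edgeR that was added after the values were seen (adjusted p = 0.024 and 0.043). In it 22.4% of all genes were called, and the calls of 2 of 8 members were close to that share. They therefore do not set these members apart from other genes. The test was against 0, while the median over all genes was -1.36. No member was called with the receptor-gene level as a covariate or with only the groups compared. All 3 libraries high in sensory receptor genes, at 916 to 3710 CPM, were in this comparison. Without them the differences were -2.69 and -2.62, farther from 0, with a median of 0.00 over all genes, and neither passed (adjusted p = 0.087 and 0.69). That fit has 1 anti-PD-1 WT tumor, whose spread is assumed to be that of the other groups. T cell marker levels did not overlap between the hosts in untreated or in anti-PD-1 tumors. Those levels include the 3 libraries high in receptor genes, and the part of the markers in the difference was not tested.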

How the results depend on the processing

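Calls of members were few and moved with the processing, and beyond the alternative's own construction the cause was not tested. Without the filter on low counts, the calls among the 8 members went from 0 to 4 for any difference in the time course, 1 for anti-PD-1 over untreated at 6 hours, 2 for IgG over untreated at day 1 and 2 for day 1 over 6 hours. At day 7 they went from 0 to 6 for any difference, from 1 to 2 for KO over WT in untreated tumors, and from 0 to 1 after IgG and on average over treatments. They went to 2 for anti-PD-1 over IgG, 2 for IgG over untreated and 1 for anti-PD-1 over untreated in WT, to 1 for IgG and 2 for anti-PD-1 over untreated in KO, and to 2 for the host difference of the IgG change. In these comparisons 75 to 1405 of 49294 genes of the time course and 274 to 7389 of 51257 genes at day 7 were called without the filter. DESeq2 called 1 member for day 1 over 6 hours, 2 for any difference at day 7 and 1 for anti-PD-1 over untreated in KO, beside 892 of 12014, 3924 of 24393 and 776 of 22411 genes. For any difference at day 7, 1 was called with DESeq2 size factors, with the receptor-gene level subtracted, and without the high receptor-gene libraries, beside 579, 416 and 247 genes.

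With a replicate block, 0 members were called between untreated KO and WT tumors (Irf1 at 1.37), as with the receptor-gene covariate, and 1 for the host difference of the anti-PD-1 change, beside 144, 0 and 1408 genes. The latter had 2 calls, 1 with the receptor-gene level subtracted, and 0 with only the groups compared, with the covariate or without the high receptor-gene libraries, beside 6919, 568, 24, 0 and 5 genes. Same-numbered tumors had a median correlation of deviations of -0.075 and -0.018, so the numbers do not pair them. Leaving out 1 tumor gave 0 to 4 calls for any difference at day 7, 0 to 1 for untreated KO over WT, 0 to 3 for anti-PD-1 over IgG and 0 to 1 over untreated in WT, 0 to 1 over untreated in KO, and 1 to 3 for the host difference of the anti-PD-1 change, beside 291 to 6943, 48 to 339, 0 to 2271, 0 to 4584, 0 to 170 and 169 to 18929 genes in that order.

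Signs turned for Irf7 at 6 hours with the block (-0.19), and for Irf3 between anti-PD-1 hosts with the covariate (-0.19) and without the high receptor-gene libraries (-0.0096). Leaving out 1 tumor gave ranges of -0.017 to 2.48 for Irf1 in IgG over untreated at day 1, -2.25 to 0.27 and -0.14 to 1.63 for Irf1 in anti-PD-1 over IgG at days 1 and 3, -0.14 to 0.72 for Irf7 at 6 hours, -0.13 to 0.49 for Irf1 between IgG hosts, and -0.0073 to 0.30 for Irf3 and -0.77 to 0.59 for Irf7 between anti-PD-1 hosts. Of the 232 pairs of member and comparison, 116 turned sign under at least 1 alternative, 2 of them with an unadjusted p under 0.05. With 3 tumors a group and an SE near 0.80 for Irf1 in the time course, small changes were not detectable.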
